A study of Mus musculus with 16 samples.

Results

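A set of 10 enzymes that oxidise or hydrolyse small lipophilic molecules were followed in the fetal urogenital sinus (UGS) epithelium of mice exposed to TCDD or vehicle. They are the flavin-containing monooxygenases *Fmo1*, *Fmo2*, *Fmo4* and *Fmo5*, the carboxylesterase *Ces1d*, the aldehyde dehydrogenases *Aldh2*, *Aldh3a1*, *Aldh3a2* and *Aldh3b1*, and the selenium-binding protein *Selenbp1*. These 10 of the 55487 genes in the count table were chosen by gene name, and the set was drawn up in part because *Fmo2*, *Ces1d* and *Selenbp1* changed with TCDD. For these 3 genes the change is therefore a description and carries no test.

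UGS epithelium lines the fetal structure that gives rise to the prostate. It was freed of mesenchyme after digestion and collected from male C57BL/6J fetuses at embryonic age E16.75. Dams received corn oil (5 ml/kg, the vehicle group) or TCDD by mouth, and no genetic modification was carried by either group. TCDD is 2,3,7,8-tetrachlorodibenzo-*p*-dioxin, a long-lived ligand of the aryl hydrocarbon receptor (AHR). The sample labels and the methods give a dose of 5 µg/kg on E13.5, whereas the series description gives 1 µg/kg, and 1 passage of the study's text gives a later day. Each group held 4 pools of 5 or 6 epithelia, so that the replicate was a pool and not an animal, and each pool was read on 2 lanes. TCDD replicate 1 was left out of the authors' comparison as an outlier, so each test below was run on 7 pools and repeated on all 8.

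Flavin-containing monooxygenases add oxygen to nitrogen and sulfur atoms of drugs and dietary amines, and *Fmo5* acts mainly on carbonyl groups. Carboxylesterases cut ester and amide bonds of drugs and lipids, and aldehyde dehydrogenases turn reactive aldehydes, including retinaldehyde and the products of lipid peroxidation, into acids. In the liver, the AHR is known for switching on enzymes of foreign-compound metabolism, and *Aldh3a1* is a classical target of dioxin in rat liver. SELENBP1 oxidises methanethiol.

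The pools held 22254896 to 28146766 counts over both lanes. Levels are CPM (counts scaled to a common library size) scaled by TMM over all 8 pools, and 3 counts correspond to 0.107 to 0.135 CPM. Of the 10 genes, 6 had enough counts to be tested, and *Fmo1*, *Fmo4*, *Aldh3a1* and *Aldh3b1* did not. The 5 AHR target genes taken as an exposure check were *Cyp1a1*, *Cyp1b1*, *Ahrr*, *Tiparp* and *Nqo1*. All were higher with TCDD in the 7 pools, beside 11.9% of all tested genes. Their summed level was 33.4 to 39.8 CPM in vehicle pools and 538 to 715 CPM in TCDD pools. *Cyp1a1* and *Ahrr* entered the test only through the TCDD pools, where they were high, so nothing is read from their calls. The summed level of 10 markers of UGS epithelium was 6661 to 7000 CPM in vehicle pools. In TCDD replicates 2 to 4 it was 7021 to 7759 CPM, and in TCDD replicate 1 it was 7885 CPM. That of 18 mesenchyme markers was 171 to 232 CPM in vehicle pools, 97.5 to 103 CPM in TCDD replicates 2 to 4 and 184 CPM in TCDD replicate 1. In the 7 pools, 9 of the 11 mesenchyme markers tested were lower with TCDD, beside 11.2% of all tested genes. Over all 8 pools, 4 of 11 were lower, beside 6% of all tested genes. The 9 lower in the 7 pools include *Pdgfrb*, with 1 to 3 counts in TCDD replicates 2 to 4. It entered that test only through the vehicle pools, where it was high, so nothing is read from its call. Of the 10 epithelial markers, 2 were higher, 2 were lower and 6 did not pass in the 7 pools. The smooth muscle sum was also lower in TCDD replicates 2 to 4 (1.13 to 1.86 CPM) than in vehicle (2.91 to 6.01 CPM). So was that of nerve and glia (8.41 to 8.51 against 11.1 to 12.3 CPM). The leukocyte sum was 10.1 to 18.2 CPM in vehicle and 16.6 to 25.7 CPM in TCDD replicates 2 to 4. In TCDD replicate 1 these 3 sums were 6.02, 13.7 and 12.9 CPM. Endothelial markers reached 5.05 CPM in TCDD replicate 1 and at most 1.53 CPM elsewhere, and erythroid markers reached 17.99 CPM in vehicle replicate 2 and at most 3.68 CPM elsewhere.

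Over the 7 pools, edgeR's quasi-likelihood test at a Benjamini-Hochberg adjusted p of 0.05 called 11.9% of 14233 tested genes higher with TCDD and 11.2% lower. Of the 6 members tested, 2 were higher (*Fmo5*, *Selenbp1*), 3 were lower (*Fmo2*, *Ces1d*, *Aldh2*) and *Aldh3a2* did not pass. Over all 8 pools, 7.41% of genes were called higher and 6% lower, and the members split into 2 higher, 2 lower and 2 that did not pass. Since 3 of the members were taken for their change, nothing is read from these shares. The median log2 fold change was −0.22 over the 6 members and −0.0024 over all tested genes. The tests set the difference between groups against the spread between pools. Dams were dosed, and the labels do not say whether the pools of a group came from separate litters. The pools may therefore not be independent exposures.

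**Figure D1:**
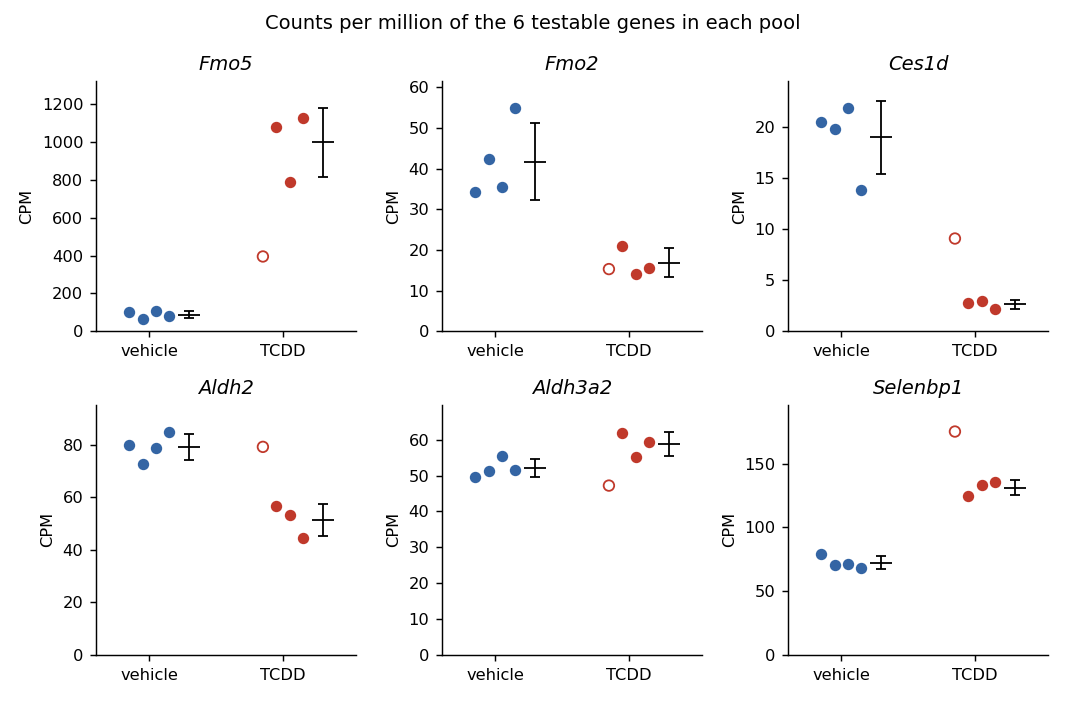
CPM (y axis, from 0) of the 6 testable members in each pool, with vehicle pools in blue, TCDD replicates 2 to 4 in red and TCDD replicate 1 as an open circle, and with bars for the mean ± SD of the 4 vehicle pools and of TCDD replicates 2 to 4. *Fmo5* rises from at most 105 CPM to at least 396 CPM, while TCDD replicate 1 sits between the groups for *Ces1d* and among the vehicle pools for *Aldh2*.

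*Fmo5* had the largest change of the members. Its level in vehicle replicates 1 to 4 was 99.3, 64.8, 105 and 78.8 CPM, and in TCDD replicates 1 to 4 it was 396, 1082, 789 and 1126 CPM. All 4 TCDD pools lay above all vehicle pools, and TCDD replicate 1 was the lowest of them by a wide margin. *Fmo5* rose 11.5-fold over the 7 pools (log2 fold change 3.52, SE 0.20, adjusted p = 1.22e-05), which placed it 20th of the 14233 tested genes by rise. With all 8 pools, the log2 fold change was 3.29 (SE 0.35, adjusted p = 0.00120). Per kilobase of exon, its level went from 15.3 ± 3.26 CPM (SD, n = 4) in vehicle to 176 ± 32.3 CPM (SD, n = 3) in TCDD replicates 2 to 4. The gene lies on GRCm38 chromosome 3 (97628804 to 97655282, plus strand), apart from the other members of its family.

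*Fmo2*, the main flavin monooxygenase of the lung in most mammals, went the other way. It stood at 34.2, 42.3, 35.5 and 54.9 CPM in vehicle replicates 1 to 4 and at 15.3, 20.9, 14.1 and 15.6 CPM in TCDD replicates 1 to 4. The groups did not overlap, and TCDD replicate 1 lay within the range of the other TCDD pools. The level was 2.47-fold lower with TCDD (log2 fold change −1.30, SE 0.19, 7 pools) and the log2 fold change was −1.34 (SE 0.17) over 8 pools. *Fmo6*, a neighbour of *Fmo2* on the minus strand of chromosome 1 (162916551 to 162937515, against 162874317 to 162898726 for *Fmo2*), was also lower. It fell from 3.58 ± 0.653 CPM (SD, n = 4) to 1.69 ± 0.277 CPM (SD, n = 3; log2 fold change −1.09, adjusted p = 0.00365), with 1.24 CPM in TCDD replicate 1. The remaining genes of the chromosome 1 group had few reads or none.

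*Fmo1* lay between 0.153 and 0.471 CPM in vehicle pools (4 to 13 counts) and between 0.0379 and 0.121 CPM in TCDD replicates 2 to 4 (1 to 3 counts), with 0.266 CPM in TCDD replicate 1, which is within the vehicle range. *Fmo4* had at most 2 counts in any pool. Neither level allowed a test. Of the 7 genes of the family, 3 had enough counts for the test. *Fmo5* was higher and *Fmo6* was lower in both the 7 and the 8 pools. Of all tested genes, 11.9% were higher and 11.2% lower over 7 pools, and 7.41% and 6% over 8. *Fmo2* was lower as well, but it was chosen for its change, so nothing is read from its call or from this count.

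The make-up of the family shifted with these changes. *Fmo5* made up 53.4% to 70.0% of the family's summed level per kilobase in vehicle pools, 97.5% to 98.1% in TCDD replicates 2 to 4 and 95.4% in TCDD replicate 1. The share of *Fmo2* was 23.9% to 38.4% with vehicle and 1.38% to 1.91% in TCDD replicates 2 to 4. The sum for the whole family per kilobase was 21.4 to 26.4 CPM in vehicle pools, 143 to 202 CPM in TCDD replicates 2 to 4 and 73.1 CPM in TCDD replicate 1.

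*Ces1d*, which in mouse liver and fat is known for hydrolysing triglycerides, was the member with the largest decrease. Vehicle replicates 1 to 4 held 20.4, 19.8, 21.9 and 13.8 CPM, and TCDD replicates 1 to 4 held 9.08, 2.73, 2.98 and 2.16 CPM. No TCDD pool reached the lowest vehicle pool, but TCDD replicate 1 stood well above the other 3. The level was 7.26-fold lower over 7 pools (log2 fold change −2.86, SE 0.19), and 8 genes of all those tested fell further. Over 8 pools the log2 fold change was −2.18 (SE 0.40), a smaller decrease. *Ces1d* lies on the minus strand of chromosome 8 (93166068 to 93197838) and shared 1.08% of its 50-base words with other transcripts, 0.734% with *Ces1b*.

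Of the 18 relatives of *Ces1d*, 4 had enough counts in the 7 pools (*Ces2b*, *Ces2e*, *Ces2f* and *Ces2g*). These 4 were higher with TCDD, beside 11.9% of all tested genes, though 2 of the calls rested on few counts. *Ces2b* entered the test only through the TCDD pools, where it was high, so nothing is read from its call. Over 8 pools 3 were tested and 2 were higher, beside 7.41% of all tested genes. *Ces1b* was not tested and had 0 to 3 counts in vehicle pools and 13 to 22 counts in TCDD pools. The clearest was *Ces2g*, with 24.4, 33.6, 26.8 and 29.5 CPM in vehicle replicates 1 to 4 and 49.7, 58.8, 63.4 and 58.3 CPM in TCDD replicates 1 to 4. The groups did not overlap, and the gene rose 2.099-fold (log2 fold change 1.07, SE 0.10, adjusted p = 4.52e-06). *Ces2e* was also higher (0.963 ± 0.352 CPM, SD, n = 4, against 2.30 ± 0.155 CPM, SD, n = 3, log2 fold change 1.23, adjusted p = 0.00648), and TCDD replicate 1 (1.28 CPM) lay within the vehicle range.

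*Ces2b* and *Ces2f* passed narrowly and from few counts. *Ces2b* was at 0.401 ± 0.0598 CPM (SD, n = 4) in vehicle and 0.854 ± 0.0150 CPM (SD, n = 3) with TCDD (log2 fold change 1.08, adjusted p = 0.0319). Its call was lost without vehicle replicate 1, without vehicle replicate 2, and without any of TCDD replicates 2 to 4, with adjusted p between 0.0654 and 0.113. *Ces2f* was at 1.13 ± 0.0786 CPM (SD, n = 4) and 1.97 ± 0.510 CPM (SD, n = 3; log2 fold change 0.81, adjusted p = 0.0384). Its call was lost without any of the 4 vehicle pools and without TCDD replicate 2 or 4, with adjusted p between 0.0643 and 0.167, and with all 8 pools (adjusted p = 0.204).

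Per kilobase, *Ces1d* and *Ces2g* stood level in vehicle pools, at 8.01 ± 1.5 and 8.004 ± 1.102 CPM (SD, n = 4). In TCDD replicates 2 to 4 they were at 1.11 ± 0.179 and 16.83 ± 0.797 CPM (SD, n = 3). *Ces1d* thus made up 38.6% to 52.6% of the carboxylesterase sum in vehicle pools, 4.77% to 5.98% in TCDD replicates 2 to 4 and 19.9% in TCDD replicate 1. The sum of all 19 genes changed much less, from 15.1 to 18.9 CPM per kilobase in vehicle pools to 19.1 to 21.1 CPM in TCDD replicates 2 to 4.

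**Figure D2:**
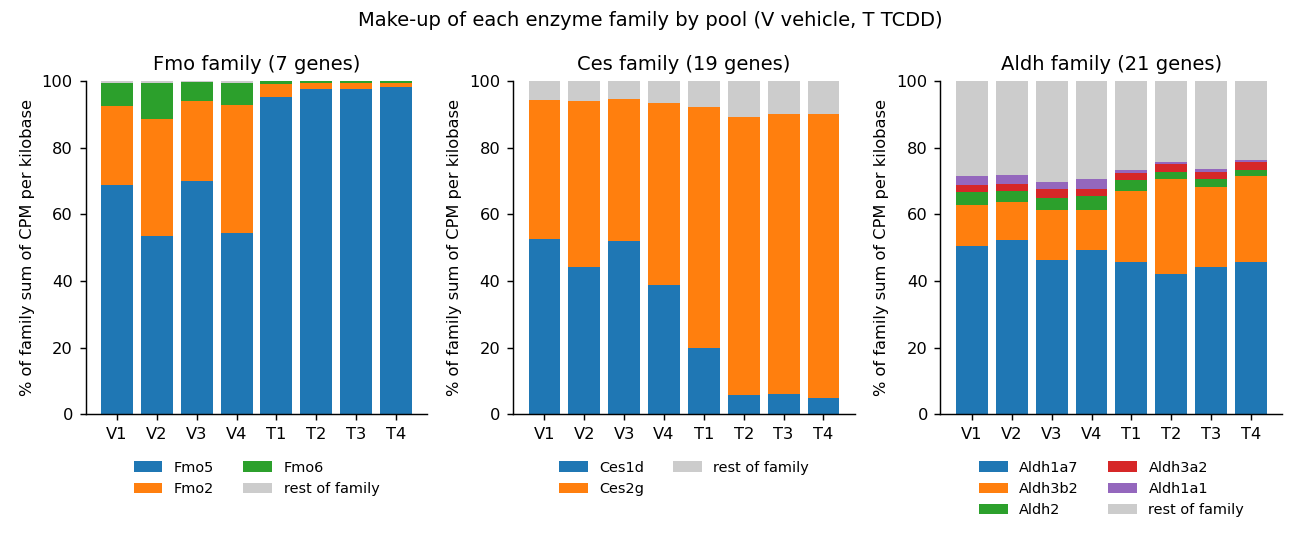
Share of each family's summed CPM per kilobase of exon (y axis, percent) taken by named genes in each pool (V1 to V4 vehicle, T1 to T4 TCDD). In the 3 TCDD pools T2 to T4, *Fmo5* takes at least 97.5% of the Fmo sum, *Ces2g* at least 83.4% of the Ces sum and *Aldh3b2* at least 24.1% of the Aldh sum.

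*Aldh2*, the mitochondrial enzyme that clears acetaldehyde, had a modest decrease that rested on which pools were used. Its level in vehicle replicates 1 to 4 was 79.9, 72.8, 78.7 and 85.1 CPM, and in TCDD replicates 1 to 4 it was 79.2, 56.5, 53.2 and 44.5 CPM. TCDD replicates 2 to 4 lay below all vehicle pools, whereas TCDD replicate 1 lay in the middle of them. *Aldh2* was 1.54-fold lower over the 7 pools (log2 fold change −0.62, SE 0.09, adjusted p = 1.85e-04). With all 8 pools the log2 fold change was −0.44 (SE 0.15) and no longer passed (adjusted p = 0.0802).

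*Aldh3a2*, which oxidises long-chain fatty aldehydes, stood at 49.5, 51.4, 55.5 and 51.6 CPM in vehicle replicates 1 to 4. In TCDD replicates 1 to 4 it stood at 47.2, 62.0, 55.2 and 59.4 CPM. The groups overlapped, and the log2 fold change of 0.18 (SE 0.08) did not pass (adjusted p = 0.111), nor did that of 0.11 over 8 pools (adjusted p = 0.477).

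The other aldehyde dehydrogenases of the set were near the limit of detection. *Aldh3a1* had 0 to 6 counts in a pool and was highest in TCDD replicate 4 at 0.227 CPM, while TCDD replicates 1 to 3 had 0 counts. A count of 0 in these pools allows a level of up to 0.135 CPM. *Aldh3b1* had 0 to 7 counts, with a highest level of 0.281 CPM in TCDD replicate 2. A decrease or a small rise in these genes was not detectable at this depth. A large rise was not seen, since no TCDD pool held more than 6 counts of *Aldh3a1* or 7 of *Aldh3b1*. *Aldh3a1* and *Aldh3a2* are neighbours on chromosome 11, and *Aldh3a2* was well covered.

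Of the 17 other aldehyde dehydrogenases, 16 were tested, 2 were higher, 2 were lower and 12 did not pass, beside 11.9% higher and 11.2% lower over all genes. Over 8 pools, 2 were higher and 1 was lower. *Aldh1a1*, an enzyme that makes retinoic acid, had 55.4, 60.5, 44.6 and 58.2 CPM in vehicle replicates 1 to 4 and 26.1, 17.97, 17.02 and 16.02 CPM in TCDD replicates 1 to 4. Every TCDD pool lay below every vehicle pool, a 3.22-fold decrease (log2 fold change −1.69, SE 0.11, adjusted p = 2.58e-07). *Aldh3b2*, which in mouse sits on lipid droplets, had 110, 104, 128 and 105 CPM in vehicle replicates 1 to 4 and 206, 292, 232 and 253 CPM in TCDD replicates 1 to 4. It rose 2.31-fold without overlap (log2 fold change 1.21, SE 0.09, adjusted p = 7.80e-07). Its counts are uncertain, since it shares 24.2% of its 50-base words with other transcripts, mostly those of its neighbour *Aldh3b3*. Reads lying wholly in shared stretches can align to several places, and the methods do not state how such reads were handled.

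Smaller changes were seen in a pair of further family genes. *Aldh7a1*, an enzyme of lysine breakdown, was lower (83.9 ± 5.11 CPM, SD, n = 4, against 67.0 ± 4.85 CPM, SD, n = 3, log2 fold change −0.33, adjusted p = 0.00776), but not with all 8 pools (adjusted p = 0.115). *Aldh9a1*, an enzyme of carnitine synthesis, was higher (68.5 ± 3.29 against 81.2 ± 5.22 CPM, log2 fold change 0.24, adjusted p = 0.0271). That call was lost without vehicle replicate 1, 2 or 4 and without TCDD replicate 2, with adjusted p between 0.0557 and 0.1096, and it held with all 8 pools (adjusted p = 0.0211). *Aldh1a7*, a close copy of *Aldh1a1*, was the most abundant gene of the family per kilobase, at 206 ± 17.8 CPM in vehicle (SD, n = 4) and 204 ± 5.69 CPM in TCDD replicates 2 to 4 (SD, n = 3). It shared 7.49% of its 50-base words with *Aldh1a1*. *Aldh2* made up 3.29% to 4.10% of the family's sum per kilobase with vehicle and 1.89% to 2.31% in TCDD replicates 2 to 4, while *Aldh3b2* went from 11.3% to 14.9% up to 24.1% to 28.3%.

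*Selenbp1* was higher in all TCDD pools. It stood at 79.5, 70.8, 71.3 and 68.1 CPM in vehicle replicates 1 to 4 and at 175, 124, 133 and 136 CPM in TCDD replicates 1 to 4. The groups did not overlap, and here TCDD replicate 1 was the highest of all pools. The increase was 1.81-fold over 7 pools (log2 fold change 0.85, SE 0.07) and the log2 fold change was 0.97 (SE 0.10) over 8. *Selenbp1* shares 46.3% of its 50-base words with *Selenbp2*, so that reads lying wholly in shared stretches can align to both genes. The methods do not state how such reads were handled, and the counts of both genes are uncertain. *Selenbp2*, known in mouse liver as a binder of acetaminophen, was at 6.61 ± 1.35 CPM (SD, n = 4) in vehicle and 11.1 ± 0.598 CPM (SD, n = 3) in TCDD replicates 2 to 4 (log2 fold change 0.74, adjusted p = 0.00369). In TCDD replicate 1 it was at 8.01 CPM, within the vehicle range.

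Since the 2 genes are close copies on the plus strand of chromosome 3 and both were higher, the stretches before their annotated starts are shown together, from RefSeq promoter windows of GRCm38.p6. Capitals mark GCGTG, the core of the AHR binding element, which was searched on both strands.
Selenbp1 (chr3:94932833-94933055, plus strand): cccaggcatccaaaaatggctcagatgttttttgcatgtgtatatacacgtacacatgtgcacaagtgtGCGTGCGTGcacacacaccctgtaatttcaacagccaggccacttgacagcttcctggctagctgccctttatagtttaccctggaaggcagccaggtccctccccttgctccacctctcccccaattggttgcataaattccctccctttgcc
Selenbp2 (chr3:94693323-94693555, plus strand): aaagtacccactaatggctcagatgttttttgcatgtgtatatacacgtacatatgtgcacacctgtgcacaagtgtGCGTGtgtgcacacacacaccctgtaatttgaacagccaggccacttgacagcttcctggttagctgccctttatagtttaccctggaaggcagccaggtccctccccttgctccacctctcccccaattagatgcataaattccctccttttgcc
The stretch before *Selenbp1* holds the motif in 2 copies that share 1 base, whereas that before *Selenbp2* holds it in 1, and the longest run of bases common to both is 69.

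Windows of 300 bases (250 before to 50 after the RefSeq start) were given for 6 of the 10 members, with 2 windows for *Fmo2*. GCGTG was found in the windows of *Selenbp1* and *Aldh3a2* and in none of those of *Fmo2*, *Fmo4*, *Fmo5* and *Aldh3b1*. Of all 32851 windows, 32.4% held it. The second motif searched, TGACNNNGC, the core of the antioxidant response element, was in none of the members' windows and in 12.4% of all windows. For *Fmo5*, the RefSeq start used lies 215 bases inside the annotated gene, so its window covers transcribed sequence and is not shown. A match or its lack in such a window describes the letters alone.

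**Figure D3:**
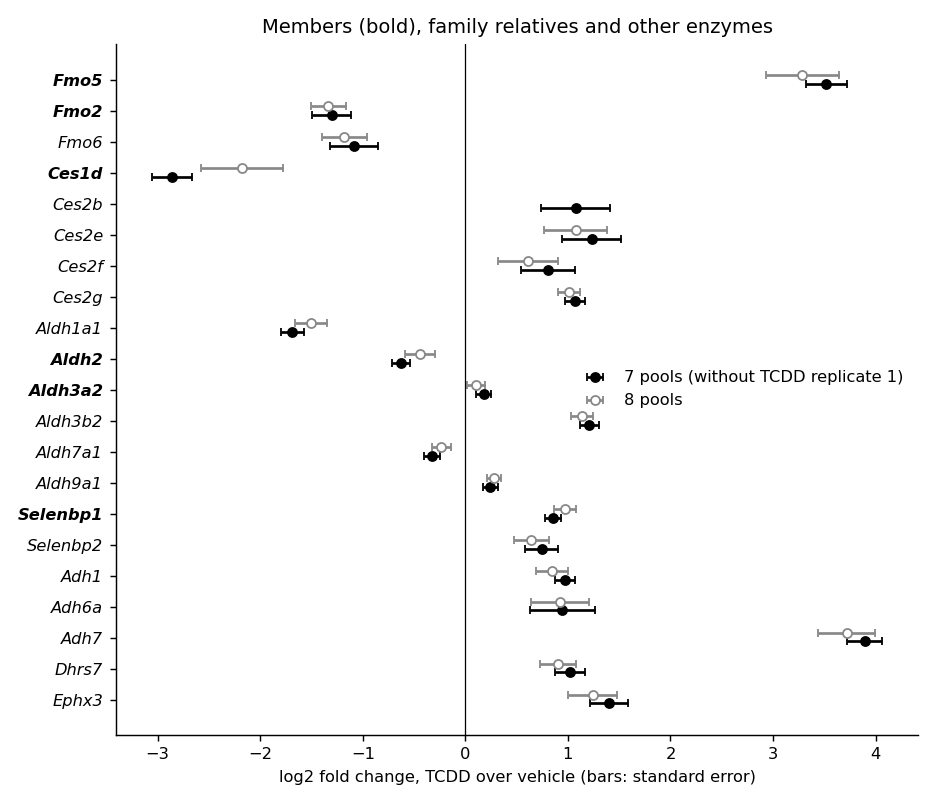
Log2 fold change of TCDD over vehicle (x axis) with its standard error for the 6 testable members (bold) and the relatives and other enzymes named in the text, over 7 pools (filled) and over 8 pools (open, *Ces2b* not tested). *Fmo5* (3.52) and *Adh7* (3.89) lie furthest to the right and *Ces1d* (−2.86) furthest to the left, and *Ces1d* moves most between the 7 and the 8 pools.

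In total, 39 relatives of the members were listed by family, 22 were tested over 7 pools, and 7 were higher, 3 lower and 12 did not pass. The shares of all genes given above are the background for this count, and the median log2 fold change of the 22 relatives was 0.06. The 7 higher include *Ces2b*, which entered the test only through the TCDD pools. Over 8 pools, 21 were tested, with 5 higher, 2 lower and 14 that did not pass. The number higher fell to 4 without vehicle replicate 1, without vehicle replicate 2 or without TCDD replicate 2.

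A further list held 46 other oxidoreductases and hydrolases of aldehydes, ketones, epoxides and esters. Of its 33 tested genes, 9 were higher, 2 were lower and 22 did not pass, against the same shares of 11.9% and 11.2% of all genes. Over 8 pools, 8 of 32 were higher and 1 was lower, beside 7.41% and 6% of all genes. *Adh7*, an alcohol dehydrogenase of stomach and skin that oxidises retinol, had the largest change, from 2.27, 5.11, 4.44 and 3.52 CPM in vehicle replicates 1 to 4 to 30.6, 61.1, 56.0 and 53.9 CPM in TCDD replicates 1 to 4. Its log2 fold change was 3.89 (SE 0.17, adjusted p = 3.68e-08), and the lowest TCDD pool was again TCDD replicate 1. *Ephx3*, an epoxide hydrolase of the skin barrier (log2 fold change 1.40, adjusted p = 9.78e-05), *Dhrs7*, a short-chain dehydrogenase (1.02, adjusted p = 3.71e-04), and *Adh1*, the class I alcohol dehydrogenase (0.97, adjusted p = 1.40e-05), were higher as well.

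*Adh6a*, another alcohol dehydrogenase gene, passed narrowly at 0.759 ± 0.271 CPM (SD, n = 4) against 1.48 ± 0.188 CPM (SD, n = 3; log2 fold change 0.95, adjusted p = 0.0430). That call was lost without vehicle replicate 1, 3 or 4 and without any of TCDD replicates 2 to 4 (adjusted p between 0.0546 and 0.127) and with all 8 pools (adjusted p = 0.0517). Vehicle replicates 3 and 4 held 16 and 13 counts of *Adh6a* over both lanes, too few for the filter. The gene thus entered the test only with the help of the TCDD pools, and nothing is read from its call. The number of genes of this list that were lower went from 2 to 1 without TCDD replicate 4.

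The decreases in *Fmo2*, *Ces1d* and *Aldh2* coincided in TCDD replicates 2 to 4 with the lower mesenchyme markers given above. In TCDD replicate 1, *Fmo2* was as low as in the other TCDD pools, *Ces1d* lay between the groups and *Aldh2* was at the vehicle level. The mesenchyme sum of this pool, 184 CPM, lay within the vehicle range, but *Dcn* alone gave 91.6 CPM of it. The tested markers of this pool were mixed. Within their vehicle ranges lay *Dcn*, *Col1a1* (7.31 CPM), *Col1a2* (5.14 CPM), *Col6a1* (2.57 CPM), *Pdgfra* (2.44 CPM) and *Pdgfrb* (0.886 CPM). *Lum* (17.8 CPM) was above every vehicle pool. *Vim* (5.36 CPM), *Col3a1* (24.0 CPM), *Fbn1* (23.2 CPM) and *Zeb2* (1.82 CPM) were below every vehicle pool. In bulk tissue, fewer cells that express a gene and less RNA per cell cannot be told apart. The part of mesenchymal cells in these decreases was not tested.

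**Figure D4:**
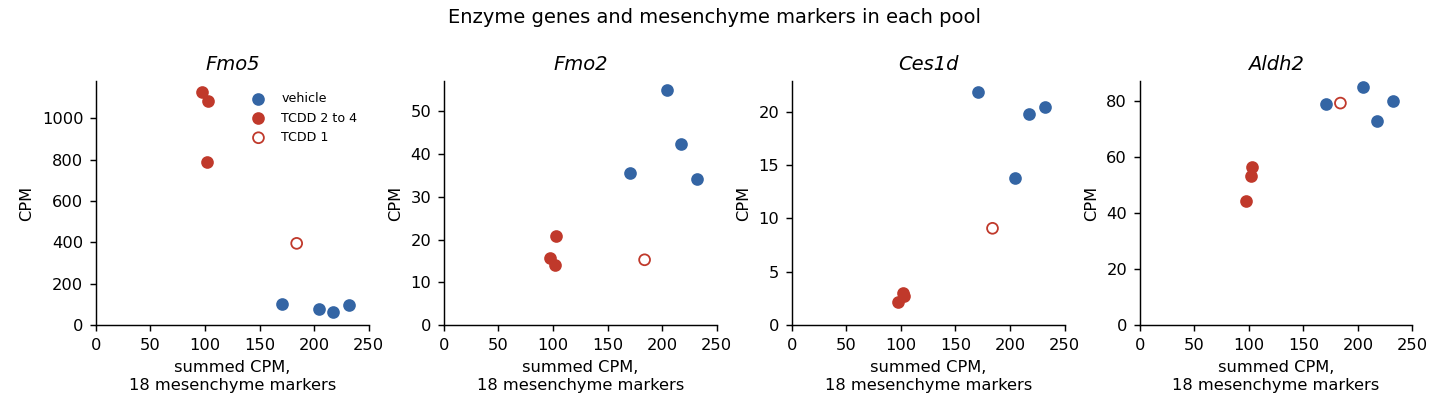
CPM of *Fmo5*, *Fmo2*, *Ces1d* and *Aldh2* (y axes) against the summed CPM of 18 mesenchyme markers (x axis) in each pool. TCDD replicate 1 (open circle) has a marker sum of 184 CPM, inside the range of the vehicle pools (blue, 171 to 232). It has 15.3 CPM of *Fmo2*, near the other TCDD pools (red).

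The place of TCDD replicate 1 varied between members. It was the lowest TCDD pool for *Fmo5* and *Aldh3a2*, the highest for *Ces1d*, *Aldh2* and *Selenbp1*, and inside the range of the other TCDD pools for *Fmo2*.

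The genes most alike in pattern were taken as those with the highest Pearson r of log2 CPM over the 8 pools among 14233 genes. They were *Paqr5* (0.999) and *Ccr4* (0.997) for *Fmo5*, *Grp* (0.988) and *Coro2a* (0.984) for *Fmo2*, and *Bcl11a* (0.994) and *Zscan21* (0.991) for *Ces1d*. For *Aldh2* they were *B4galnt4* (0.991) and *Bud13* (0.990), for *Aldh3a2* *Tex2* (0.972) and *Tecpr1* (0.969), and for *Selenbp1* *Krt10* (0.982) and *Scpep1* (0.977). These values describe 8 pools that share the 2 treatments, and the highest of many genes is high by selection.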

How the data were processed

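RNA-seq counts were taken from 4 vehicle and 4 TCDD pools. By the methods, the authors trimmed reads after a look with FastQC 0.11.9, aligned them with HISAT2 2.1.0 to GRCm38.p6 (with an index credited to Bowtie2 2.4.1), sorted them with SAMtools 1.10 and counted them over exons with HTSeq 0.12.4 in reverse-stranded mode. The authors deposited these counts per gene for 16 pool and lane columns. Lines that name no gene held 17.4% to 20.1% of a column and were left out. The authors' own comparison tables (fold changes and p-values) were not used.

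Lanes were averaged, as the authors did. Between lanes, the chi-square per gene was 0.990 to 1.04, close to sampling noise alone. Genes were filtered with filterByExpr (minimum count 10, minimum total count 15), scaled by TMM and compared with the quasi-likelihood F-test of edgeR 4.0.16 (robust, legacy dispersion) in R 4.3.3. Benjamini-Hochberg adjustment ran over the whole table, with a threshold of 0.05. Alternatives were all 8 pools, other scalings, no filter, single lanes, a replicate block, TREAT against 1.5-fold, each pool left out and DESeq2 1.42.0. Positions, exon lengths and shared 50-base words come from GENCODE M21 (GRCm38).

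The members and lists were chosen with earlier results of these data known. Named were all members, every family relative that passed, the 5 largest changes among passing genes of the other-enzyme list, and the 2 genes most alike each testable member. Genes noted for their level or for sharing sequence (*Aldh1a7*, *Aldh3b3*, *Ces1b*) are outside that rule and were named after their values were seen.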

Additional observations from a re-analysis of the deposited data

Results flagged for a closer look

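In the 21 genes named with a fold change, the vehicle and TCDD pools gave 42 groups of 4, and in 2 of them 1 pool lay far from the other 3 by Dixon's criterion. Chance alone singles out about 1 in 20 groups. *Ces1d* was at 9.08 CPM in TCDD replicate 1 and at 2.16 to 2.98 CPM in the other TCDD pools. *Ces2b* was at 0.487 CPM in TCDD replicate 1 and at 0.844 to 0.871 CPM in the other TCDD pools. Both values come from the library that the authors left out.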

How the results depend on the processing

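Of 395 comparisons of a result with an alternative, 346 kept direction and side of the threshold, 49 became weaker and 0 reversed. These include 19 each for *Fmo2*, *Ces1d* and *Selenbp1*, which were chosen for their change. Most of the other genes counted were named because they passed, so the total is a description and no test of the set. The log2 fold change ranged over the alternatives from 3.21 to 3.66 for *Fmo5*, −1.49 to −1.15 for *Fmo2*, −3.00 to −2.18 for *Ces1d*, 0.82 to 0.97 for *Selenbp1*, 0.10 to 0.21 for *Aldh3a2* and −0.70 to −0.44 for *Aldh2*. *Aldh2* lost its call with 8 pools and under TREAT. With all 8 pools, 1041 genes were higher and 843 lower (1688 and 1588 over 7), and 1 gene of the other-enzyme list was lower. Against a 1.5-fold change, TREAT left 368 genes higher and 205 lower, 2 relatives higher and 1 lower, and 5 other enzymes higher and 0 lower. Lane 4 alone left 1 other enzyme lower. Leaving out 1 pool gave 4 to 6 relatives higher and 1 to 3 other enzymes lower. Beside those 0 TREAT calls, the quasi-likelihood test of edgeR called 2 genes. The causes were not tested, except that TREAT asks for a larger change by construction.

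Vehicle and TCDD pools share replicate numbers, but the numbers were not taken to pair them: correlations of same-numbered pools were −0.126, −0.0389 and −0.0848 over 7 pools and 0.347, −0.0484, −0.112 and 0.0937 over 8, and not every pool correlated best with its own number. With the replicate block, 1219 genes were higher and 1205 lower, and 4 relatives were higher. With 8 pools and the block, 1109 genes were higher and 979 lower, and 1 other enzyme was lower, while *Aldh2* passed (log2 fold change −0.47, adjusted p = 0.0463 by edgeR's quasi-likelihood test), as did *Adh6a* (adjusted p = 0.04997). Few counts limit *Fmo1*, *Fmo4*, *Aldh3a1*, *Aldh3b1* and *Ces2b*.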
